A study of Mus musculus with 4 samples.

Results

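The laminin and basement membrane linker genes described here are 10 genes, picked by name out of 56980 listed in the count table. They are the laminin alpha chains Lama2, Lama4 and Lama5, the beta chains Lamb1 and Lamb2, the gamma chain Lamc1, the nidogens Nid1 and Nid2, and the heparan sulfate proteoglycans Hspg2 (perlecan) and Agrn (agrin). They were measured by RNA-seq in 4 libraries of bone marrow mesenchymal stromal cells (MSCs), each from a different wild-type male C57BL/6J mouse aged 14 weeks. Each library was made from the polyadenylated RNA of 100 cells, sorted as negative for CD45, Ter119, CD31 and Sca1 and positive for CD51 and PDGFRa. All 4 libraries form a single untreated group, so that levels, differences between genes within a mouse and the spread between mice can be described, but no treatment, age or genotype can be compared.

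Basement membranes are thin sheets of matrix that lie against cells. A laminin is a trimer of an alpha, a beta and a gamma chain that polymerises on the cell surface, where integrins and dystroglycan hold it, while type IV collagen forms a separate network. Nidogens, perlecan and agrin link both networks to each other and to the cell. In bone marrow, laminins are known chiefly from the walls of arterioles and sinusoids, to which stromal cells of the haematopoietic stem cell niche are apposed.

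The libraries held between 22738604 and 43545349 counts and detected between 16109 and 18907 genes. Together, the 10 members accounted for 0.0143% to 0.0398% of a library's counts. Among the sort antigens, Pdgfra was at 39.8 ± 7.29 TPM and Itgav, which encodes CD51, at 15.7 ± 2.51 TPM (SD, n = 4), both present in every mouse, whereas Ly6a, which encodes Sca1, had 1, 120, 0 and 144 counts in mice 1 to 4. TPM is the count divided by the exonic length and scaled to 1000000 per library. Of the marker lists, the niche stromal genes (5 of 5 above a median of 1 TPM) summed to between 1048 and 4633 TPM, and the osteoblast genes (4 of 4) to between 77792 and 168020 TPM, so that RNA of osteoblast genes, above all Bglap, outweighed that of the niche genes in every library. Osteocyte genes (3 of 4, Sost at 0) ranged from 491 to 2246 TPM, chondrocyte genes (2 of 4) from 1.39 to 30.2 TPM, adipocyte genes (2 of 4, Plin1 at 0) from 199.9 to 925 TPM, and erythroid genes (4 of 4) from 21.1 to 3821 TPM, with mouse 2 the lowest and mouse 1 the highest. The macrophage genes Adgre1, Csf1r and C1qa had no count in any library.

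Of the 10 members, 7 had a median above 1 TPM, the level that the study's methods use to call a gene expressed. The same held for 22.9% of all genes with a known exonic length and for 44.2% of the protein-coding genes. By median the order was Lamb2 (28.7 TPM), Agrn (6.01), Lamb1 (5.61), Lamc1 (4.92), Hspg2 (4.77), Nid1 (3.99) and Lama4 (3.11), followed by Nid2 (0.0220), Lama2 (0.0172) and Lama5 (0.00504). Among neighbours in this order, the difference in log2(TPM + 1) exceeded its SD over the mice for Lamb2 above Agrn (1.78 ± 0.65) and for Lama4 above Nid2 (1.63 ± 1.03), each higher in 4 of 4 mice. No other neighbours differed beyond their spread, although Agrn was above Lamb1 in 4 of 4 mice. The order of such members depends on the exonic length used, here that of all transcripts merged. By this length the mean was 8.69 TPM for Agrn, 5.63 for Lamb1, 4.51 for Hspg2 and 3.78 for Lama4. With the length of the longest transcript it was 7.34, 7.57, 3.55 and 5.92 TPM. Members farther apart in the order were not compared for this purpose. Requiring more than 1 TPM in every mouse left 6 members, without Lamb1, beside 15.4% of all genes and 30.1% of the protein-coding genes. A median above 5 TPM left Lamb2, Agrn and Lamb1, beside 14.7% of all genes and 30.4% of the protein-coding genes.

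**Figure D1:**
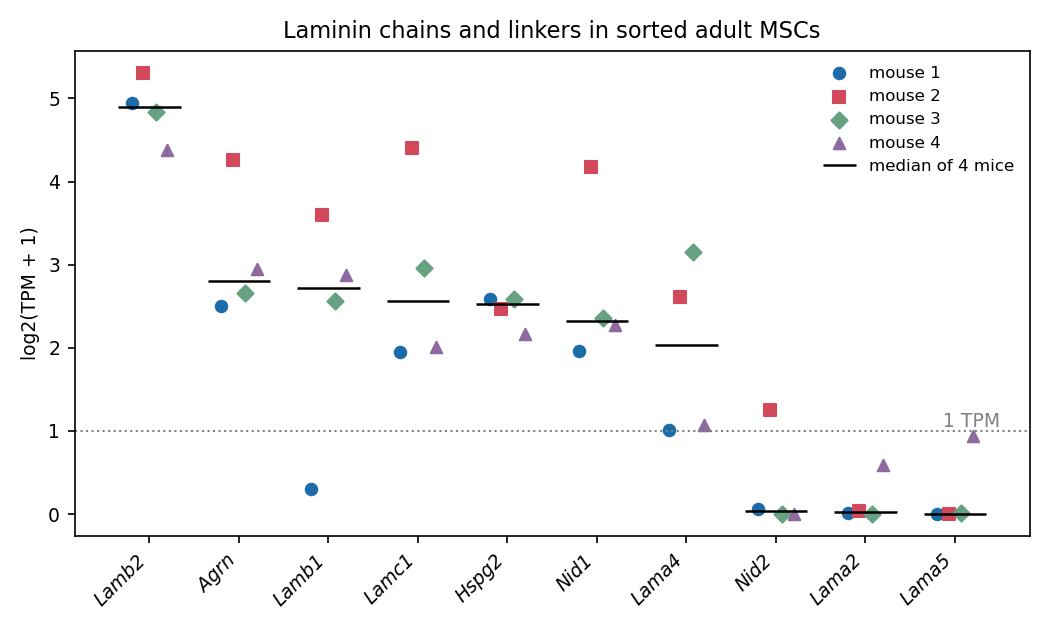
Level of each member in each mouse, as log2(TPM + 1) on the vertical axis, with 1 point per mouse, a bar for the median of 4 mice and a dotted line at 1 TPM. Lamb2 lies above every other member in all 4 mice, and Lama2 and Lama5 stay under the line in each mouse.

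Together the beta chains were the most abundant laminin transcripts, through Lamb2, which was the highest member in each of the 4 mice. Lamb2 (ENSMUSG00000052911, chromosome 9, 108479736 to 108490530, plus strand, build GRCm38) encodes the beta 2 chain, known from the basement membranes of the neuromuscular junction, the kidney glomerulus and vessels. It had 3191, 2613, 2907 and 1247 counts in mice 1 to 4, or 29.8, 38.6, 27.7 and 19.8 TPM (29.0 ± 7.72, SD, n = 4). The highest mouse was 1.95 times the lowest, and Lamb2 ranked above 88.9% of the protein-coding genes by median. Lamb1 (ENSMUSG00000002900, chromosome 12, 31265234 to 31329644, plus strand) encodes the more widely distributed beta 1 chain. It had 40, 1222, 842 and 647 counts, or 0.229, 11.1, 4.91 and 6.31 TPM (5.63 ± 4.47). Mice 2 to 4 lay between 4.91 and 11.1 TPM, while mouse 1, the library with the most counts, stood far below them.

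Lamb1 was lower than Lamb2 in 4 of 4 mice, with a mean difference of -2.54 ± 1.44 in log2(TPM + 1) (SD, n = 4, exact two-sided sign-flip permutation test, p = 0.125, adjusted p = 0.225 over 9 differences). With 4 mice this test cannot give a p below 0.125, so the size and the direction in each mouse carry the description here and for the other differences. By mouse the difference was -4.65, -1.71, -2.28 and -1.51. Lamb2 made up 99.2%, 77.7%, 84.9% and 75.9% of the summed beta chain TPM (84.4 ± 10.6). The translated longest coding sequences of both genes have 1834 residues for Lamb1 and 1799 for Lamb2, and 51.6% of their aligned residues are identical.

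The promoter windows of Lamb2 and Lamb1 are shown because the spread of these related genes between mice differed (SD over mean 26.6% and 79.3%). Lamb1 did not vary more than genes of like level, for which the median was 89.6%. The window of Lama5, which was near 0 in 3 of 4 mice, is shown as well. Each window runs from 250 bases before to 50 bases after the RefSeq transcription start (build GRCm38.p6), 5′ to 3′ on the strand of the gene, and capitals mark the GC box letters GGGCGG or CCGCCC, which are the same motif read on either strand. The windows are chr9:108479612-108479911 (plus strand) for Lamb2, chr12:31265043-31265342 (plus) for Lamb1 and chr2:180225810-180226109 (minus) for Lama5.
Lamb2: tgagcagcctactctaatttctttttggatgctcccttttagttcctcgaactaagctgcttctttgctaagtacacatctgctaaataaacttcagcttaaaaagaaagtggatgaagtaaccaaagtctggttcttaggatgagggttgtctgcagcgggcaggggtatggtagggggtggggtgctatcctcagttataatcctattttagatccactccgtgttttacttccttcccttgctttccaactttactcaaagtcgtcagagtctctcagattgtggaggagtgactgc
Lamb1: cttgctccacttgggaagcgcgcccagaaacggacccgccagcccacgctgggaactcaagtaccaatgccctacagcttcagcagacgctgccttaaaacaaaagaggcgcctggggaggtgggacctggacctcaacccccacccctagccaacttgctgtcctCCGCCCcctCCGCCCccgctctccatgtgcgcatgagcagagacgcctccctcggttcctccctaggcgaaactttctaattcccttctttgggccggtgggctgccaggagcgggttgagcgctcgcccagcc
Lama5: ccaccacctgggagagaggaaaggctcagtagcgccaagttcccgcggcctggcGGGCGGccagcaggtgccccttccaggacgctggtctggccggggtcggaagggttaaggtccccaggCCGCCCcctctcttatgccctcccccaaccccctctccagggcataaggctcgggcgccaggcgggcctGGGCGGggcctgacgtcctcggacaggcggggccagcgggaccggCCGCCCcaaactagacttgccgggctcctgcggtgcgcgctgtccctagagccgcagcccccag
The Lamb2 window held no GC box, the Lamb1 window 2 and the Lama5 window 4. Of all 32851 RefSeq promoter windows of this length, 35.7% held at least 1. GC content was 44% for Lamb2, 63.7% for Lamb1 and 72.7% for Lama5, beside a median of 52.7% over all windows, and the ratio of observed to expected CpG was 0.276, 0.615 and 0.607, beside a median of 0.384. RefSeq windows were matched for 7 of the 10 members, with 2 starts for Agrn. Lama2 and Nid1 held 1 GC box each, Hspg2 5, and Agrn 11 at 1 start and 2 at the other. None of these 8 windows held TATAAA on either strand, which 13.6% of all windows did. Among the 7 members with a window, a relation between the number of GC boxes and the level was not tested. Lamb2, the highest, held no GC box, but Agrn, the next by median, held 11 and 2. Lama5, the lowest by median, held 4, but Lama2, also near 0 in most mice, held 1.

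The gamma 1 chain, Lamc1 (ENSMUSG00000026478, chromosome 1, 153218922 to 153332786, minus strand), is the gamma chain of most laminin trimers and the one that nidogen binds. Its translated sequence holds the nidogen-binding motif NIDPNAV at 1 position, and no other member holds it. Lamc1 had 419, 1849, 974 and 259 counts, or 2.88, 20.1, 6.81 and 3.03 TPM (8.20 ± 8.13, SD, n = 4). Mouse 2 was the highest and mice 1 and 4 were nearly level. Without mouse 2 the mean was 4.24 ± 2.23 TPM.

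Transcripts of the chains that form a trimer were not in equal amounts. The summed beta chains reached 30.1, 49.7, 32.6 and 26.2 TPM in mice 1 to 4, which was 10.4, 2.47, 4.78 and 8.63 times the level of Lamc1. The gamma 3 chain Lamc3, at 2.73, 4.47, 0 and 0.937 TPM, was not included in the comparisons with Lamc1. The beta chain sum exceeded Lamc1 by 2.28 ± 0.78 in log2(TPM + 1), with the same direction in 4 of 4 mice (exact permutation test, p = 0.125, adjusted p = 0.225). The summed alpha chains reached 1.02, 5.14, 7.91 and 2.53 TPM, or 0.354, 0.256, 1.16 and 0.834 times Lamc1. This difference was -0.68 ± 0.87 and smaller than its spread, with the alpha sum below Lamc1 in 3 mice and above it in mouse 3 (exact permutation test, p = 0.25, adjusted p = 0.375). It depended on the exonic length used. With the length of the longest transcript the alpha sum minus Lamc1 was -0.06 ± 0.85. The smallest ratio of beta chains to Lamc1 was in mouse 2, where Lamc1 was highest. In bulk libraries, fewer cells that express a gene and less RNA of it per cell cannot be told apart, and nothing here shows which chains were made in the same cell.

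**Figure D2:**
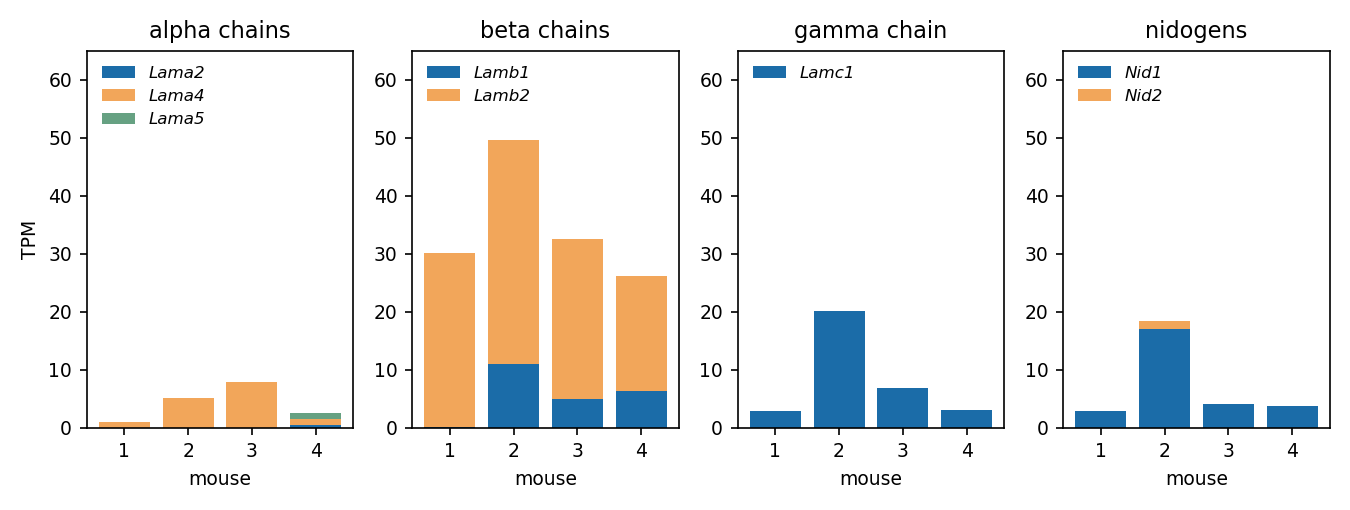
TPM of the alpha chains, the beta chains, the gamma chain Lamc1 and the nidogens in each mouse, as stacked bars that start at 0 and are coloured by gene within each panel. Lamb2 fills 75.9% to 99.2% of the beta bar in every mouse, and Lama4 fills the alpha bar in mice 1 to 3 but 43.5% of it in mouse 4.

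Lama4 was the alpha chain with a clear level. Lama4 (ENSMUSG00000019846, chromosome 10, 38965515 to 39110188, plus strand) encodes the alpha 4 chain, a short chain without the amino-terminal polymerisation domain that is known from vessel walls, fat and muscle. It had 214, 687, 1648 and 137 counts, or 1.01, 5.12, 7.90 and 1.10 TPM (3.78 ± 3.35, SD, n = 4). Mice 1 and 4 lay just above 1 TPM, and mouse 3 was 7.84 times mouse 1. Without mouse 3 the mean was 2.41 ± 2.35 TPM. The exons of Lama4 merged over all transcripts span 12068 bases against 6046 in its longest transcript, and with the latter length the mean was 5.92 ± 5.25 TPM.

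Lama2 and Lama5 were at or near 0 in 3 mice and had most of their counts in mouse 4. Lama2 (ENSMUSG00000019899, chromosome 10, 26980036 to 27619758, minus strand) encodes the alpha 2 chain of muscle and Schwann cell laminin, the chain lost in a congenital muscular dystrophy. It had 2, 5, 0 and 86 counts, or 0.00696, 0.0275, 0 and 0.509 TPM. Lama5 (ENSMUSG00000015647, chromosome 2, 180176373 to 180225859, minus strand) encodes the alpha 5 chain, typical of epithelial and mature endothelial basement membranes. It had 1, 0, 1 and 108 counts, or 0.00499, 0, 0.00508 and 0.918 TPM. A count of 0 allows up to 3 counts, which is 0.0104 to 0.0178 TPM for Lama2 and 0.0150 to 0.0255 TPM for Lama5 over the 4 libraries, and these limits cover counting error only. Neither gene reached 1 TPM in any mouse, and without mouse 4 their means were 0.0115 and 0.00336 TPM.

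Lama4 was above Lama2 by 1.80 ± 1.27 and above Lama5 by 1.72 ± 1.40 in log2(TPM + 1), each in 4 of 4 mice (exact permutation test, p = 0.125 and adjusted p = 0.225 for both). Lama2 and Lama5 differed by -0.08 ± 0.18, less than the spread (exact permutation test, p = 0.75, adjusted p = 0.75). Lama4 took 98.8%, 99.5%, 99.9% and 43.5% of the alpha chain TPM in mice 1 to 4. In mouse 4 the remainder was 20.2% Lama2 and 36.3% Lama5. The sequences of these chains are more distant than those of the beta chains, with 29.3% to 34.8% of aligned residues identical.

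Mouse 4 also held counts of other genes that were at or near 0 in the other mice, which were singled out after their values were seen. Col4a5, a type IV collagen chain, had 183 counts in mouse 4 and at most 3 elsewhere. Itgb4, the integrin beta 4 chain of hemidesmosomes, had 56 in mouse 4 and at most 2 elsewhere. Among markers of other cell types, the smooth muscle gene Myh11 had 92 counts and the leukocyte gene Ptprc 50 in mouse 4, against at most 2 in any other mouse. Counts held almost wholly by 1 mouse were not peculiar to mouse 4. The integrin gene Itga7 had 183 counts and the chondrocyte gene Matn3 128 in mouse 1, against at most 1 elsewhere. Itga6 had 38 in mouse 2 and at most 1 elsewhere. The receptor gene Bcam had 94 and the netrin gene Ntn5 51 in mouse 3, with 0 elsewhere. The Schwann list (0 of 4 genes above a median of 1 TPM) summed to 0.0725, 0.0426, 1.64 and 3.35 TPM, with Sox10 at 1 count in mouse 1 and 0 in the others. The pericyte and smooth muscle list (2 of 5, Acta2 at 0 in every mouse) summed to 2.96, 31.2, 5.88 and 11.6 TPM. The endothelial list (0 of 5) summed to 0.119, 1.28, 0.0465 and 1.10 TPM, with Cdh5 and Kdr at 0 in every mouse. The part of such cells in the Lama2 and Lama5 counts of mouse 4 was not tested.

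Nid1 was the more abundant nidogen, at about the level of Lamc1. Nid1 (ENSMUSG00000005397, chromosome 13, 13437551 to 13512269, plus strand) encodes nidogen-1, which binds the gamma 1 chain on the one side and type IV collagen and perlecan on the other. It had 354, 1321, 497 and 276 counts, or 2.90, 17.1, 4.14 and 3.85 TPM (6.998 ± 6.76, SD, n = 4). Mouse 2 stood apart, and without it the mean was 3.63 ± 0.650 TPM. Nid2 (ENSMUSG00000021806, chromosome 14, 19751265 to 19811787, plus strand) encodes nidogen-2, a partly redundant relative with 48.1% of aligned residues identical. It had 4, 80, 0 and 0 counts, or 0.0439, 1.39, 0 and 0 TPM, with the floor of 3 counts at 0.0330 to 0.0561 TPM. Only mouse 2 exceeded that floor by more than a count, and without mouse 2 the mean was 0.0146 TPM.

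Nid1 was above Nid2 by 2.37 ± 0.42 in log2(TPM + 1), with the same direction in 4 of 4 mice (exact permutation test, p = 0.125, adjusted p = 0.225), and made up 97.7% ± 3.58 of the nidogen TPM. The nidogen sum was 1.02, 0.920, 0.608 and 1.27 times Lamc1 in mice 1 to 4. Their difference was -0.11 ± 0.37, less than the spread between mice, with the nidogens higher in 2 of 4 mice (exact permutation test, p = 0.75, adjusted p = 0.75). Of the exonic bases of Nid2, 8.45% lie opposite exons of Rtraf, which had between 3276 and 7080 counts per library. The counting used no strand, so that reads from these bases cannot be assigned to either gene. In Nid1, 6.07% of the longest transcript is nearly identical to other annotated genes. These are the pseudogene Gm2399, with 0 counts in every mouse, and Gm48682, with at most 1. The latter is an antisense gene at the same locus that shares 143 exonic bases with Nid1.

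The proteoglycans were both present in every mouse, with unlike spread. Hspg2 (ENSMUSG00000028763, chromosome 4, 137468769 to 137570630, plus strand) encodes perlecan, a large core protein that binds laminin, nidogen, collagen and growth factors through its domains and heparan sulfate chains. It had 1258, 723, 1239 and 515 counts, or 4.998, 4.54, 5.01 and 3.48 TPM (4.51 ± 0.718, SD, n = 4). All 4 mice were within 1.44 times of each other. Agrn (ENSMUSG00000041936, chromosome 4, 156165290 to 156197488, minus strand) encodes agrin, which binds laminin at its amino end and dystroglycan through its laminin-G domains, and whose neural form organises the neuromuscular junction. It had 760, 1869, 850 and 645 counts, or 4.65, 18.1, 5.30 and 6.72 TPM (8.69 ± 6.33). Mouse 2 was again the highest, and without it the mean was 5.56 ± 1.06 TPM.

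Hspg2 and Agrn did not differ beyond the spread. The difference was -0.64 ± 0.85 in log2(TPM + 1), with Hspg2 higher in 1 of 4 mice (exact permutation test, p = 0.375, adjusted p = 0.482). By mouse it was 0.09, -1.78, -0.07 and -0.78, so that the genes were level in mice 1 and 3 and apart in mouse 2.

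**Figure D3:**
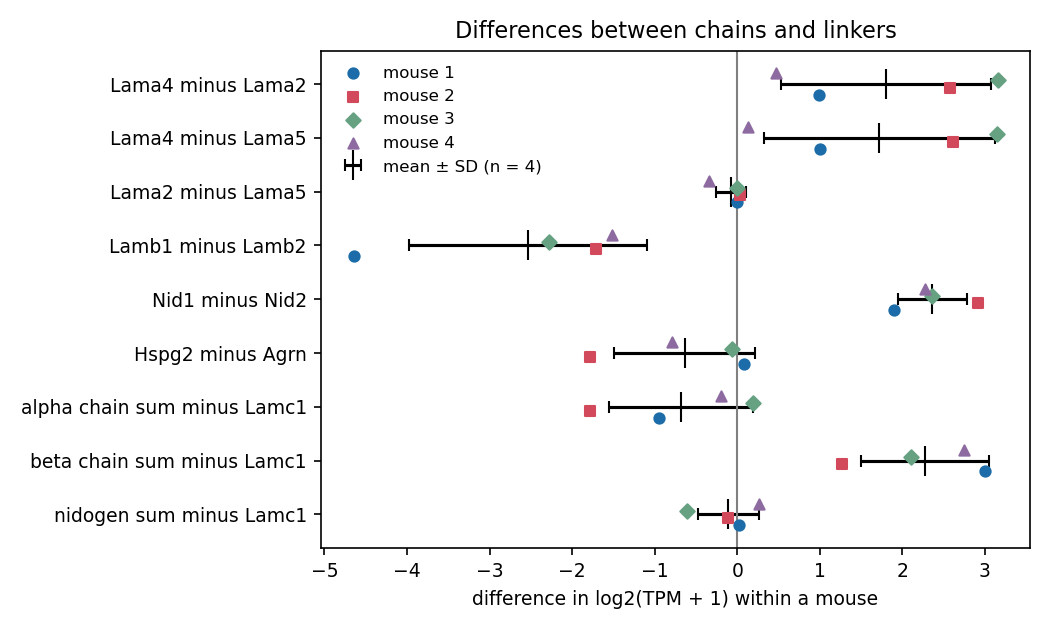
The 9 within-mouse differences in log2(TPM + 1), with 1 point per mouse, the mean of 4 mice and its SD as a bar, and a line at 0. The 4 points of Lama4 minus Lama2, Lama4 minus Lama5, Nid1 minus Nid2 and the beta chain sum minus Lamc1 lie above 0, those of Lamb1 minus Lamb2 lie below it, and the other 4 differences straddle it.

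The members differed widely in their spread between mice. The coefficient of variation (SD over mean of the TPM) was 15.9% for Hspg2 and 26.6% for Lamb2, and between 72.8% and 99.1% for Agrn, Lamb1, Lama4, Nid1 and Lamc1. Hspg2 varied less than all but 2.43% of the 8584 genes whose mean lay between 1 and 10 TPM, where the median coefficient was 89.6%. Lamb2 lay at the 24.4th percentile of the 4673 genes whose mean lay between 10 and 100 TPM, where the median was 42.4%. Of all 10 members, 5 exceeded the median of the genes of like level, namely Lama2, Lama5, Lamc1, Nid1 and Nid2. Among the 7 members with a mean above 1 TPM, 1 (Lamb1) ranged over more than 10-fold between mice, beside 38.3% of the protein-coding genes above that mean that did so or were at 0 in a mouse, and 2 (Nid1 and Agrn) had 1 mouse apart from the other 3 past the 95% limit of Dixon's ratio (the gap to the nearest mouse over the whole range), beside 11.7%. Counting error of the reads alone gives a coefficient of 2.06% to 4.13% for the 7 members with a mean above 1 TPM and 19.1% to 21.9% for the other 3. This treats reads as independent, although cDNA of 100 cells was amplified without molecular identifiers. The error from amplifying so few cells was not measured and is part of the spread between mice given here.

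**Figure D4:**
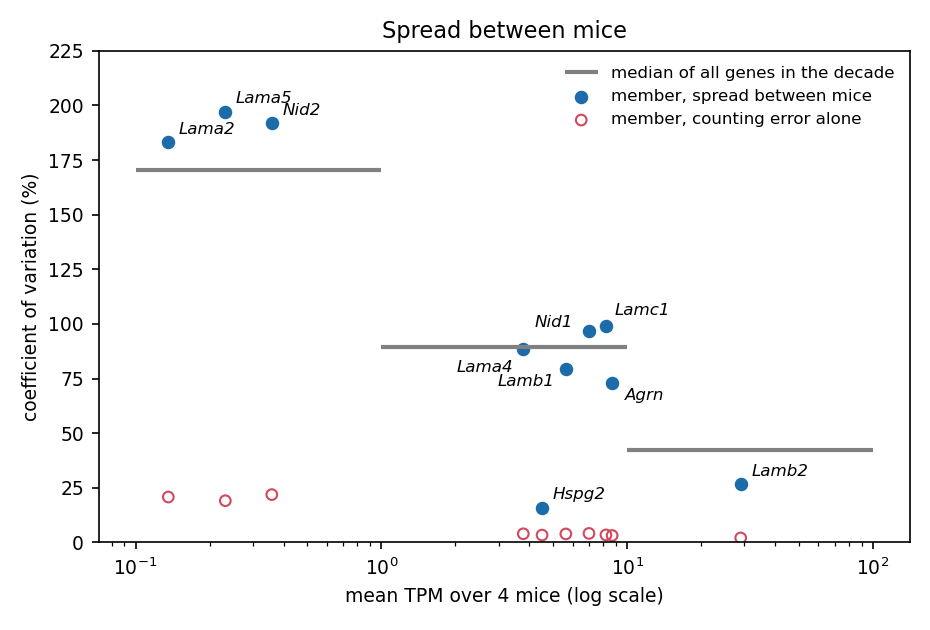
Coefficient of variation over the 4 mice in percent against mean TPM on a log axis, with 1 filled point per member and a line for the median of all genes in the same decade of mean TPM. For each member, 1 open point gives the counting error of its reads alone, taken as independent, without the error from amplification. Hspg2 (15.9%) and Lamb2 (26.6%) lie well under the line, and Lama2, Lama5, Lamc1, Nid1 and Nid2 lie above it.

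Mouse 2 was the highest mouse for 5 of the 7 members with a mean above 1 TPM, namely Lamb1, Lamb2, Lamc1, Nid1 and Agrn. Of all protein-coding genes above that mean, 26.8% were highest in mouse 1, 25.3% in mouse 2, 31.3% in mouse 3 and 16.6% in mouse 4. The 10 members summed to 46.5, 116, 61.7 and 45.8 TPM in mice 1 to 4. Lama4 and Hspg2 were highest in mouse 3 instead. With library totals adjusted by TMM factors (edgeR's trimmed mean of M values) the count for mouse 2 was the same, but Hspg2 was highest in mouse 1. The niche stromal markers were also highest in mouse 2, at 4633 TPM against 1048, 2369 and 1231 TPM in mice 1, 3 and 4. The sum of the adipocyte list was highest there as well, at 925 TPM against 199.9, 432.8 and 229.9 TPM, through Adipoq and Lpl. Of the rest of that list, Plin1 had no count in any mouse and Fabp4 had 77 counts in mouse 1 but 1 in mouse 2. Rgs5, a pericyte gene, had 1470 counts in mouse 2, 138 in mouse 4 and 0 in the others. The rest of the pericyte and smooth muscle list did not follow it. Cspg4 was lowest in mouse 2 (0.558 TPM), Des was highest in mouse 3 (3.81 TPM against 1.58 in mouse 2), and Acta2 and Myh11 had no count in mouse 2. The part of the cell make-up of that library in its member levels was not tested.

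The likeness of patterns over the mice was measured as the root mean square distance between mean-centred log2(TPM + 1) profiles over 4 mice. Among the 7 members above a median of 1 TPM the closest were Nid1 and Agrn (0.228), Lamb2 and Hspg2 (0.248), and Lamc1 and Nid1 (0.319), and the farthest were Lamb1 and Hspg2 (1.32). Among 9683 other protein-coding genes above a median of 1 TPM, the nearest to Lamb2 was Malsu1 (0.0220), the nearest to Agrn Ston2 (0.0325) and the nearest to Lamb1 F830016B08Rik (0.0840). Within a distance of 0.5 lay 2910 genes for Lamb2, 864 for Agrn and 140 for Lamb1, so that the flat profile of Lamb2 was common and that of Lamb1 less so.

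Of 46 other basement membrane genes, 21 had a median above 1 TPM. Of the other laminin chains, 1 of 5 did. Lamc3, which encodes the gamma 3 chain, had 2.73, 4.47, 0 and 0.937 TPM in mice 1 to 4, from 293, 303, 0 and 59 counts. Lama1 and Lama3 had at most 2 counts in any mouse and Lamb3 had none, so that these chains were not detectable above the floor of 3 counts at this depth. Of the netrins, laminin-related guidance proteins, 1 of 4 passed. Ntn4, which inserts into laminin networks through the gamma 1 chain, had 0.608, 0, 2.13 and 1.84 TPM, and the next by median was Ntn1 at 0.208 TPM.

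Of the network collagens, 4 of 8 passed. Col4a1, which forms the common type IV collagen together with Col4a2, had 8.24, 63.7, 14.4 and 7.25 TPM. Col4a2 had 0.163, 19.0, 8.29 and 1.87 TPM, and only 19 counts in mouse 1 beside 1082 for Col4a1. Both were highest in mouse 2, as Lamc1 and Nid1 were, and Col4a2 was lowest in mouse 1, as Lamb1 was. Col15a1 and Col18a1 encode the basement membrane collagens that carry endostatin domains. Col15a1 had 7.67, 0.340, 1.01 and 5.94 TPM and Col18a1 0.00810, 3.93, 1.84 and 0.234 TPM, so that the former was lowest and the latter highest in mouse 2.

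Of the receptors for laminin and agrin, 4 of 11 passed. Itgb1, the beta 1 chain shared by the laminin-binding integrins, was at 183 ± 20.5 TPM (SD, n = 4), far above every member. Dag1, which encodes dystroglycan, the receptor for laminin-G domains, had 18.2, 21.6, 32.0 and 25.3 TPM (24.3 ± 5.91). Lrp4, the agrin receptor of muscle, had 4.87, 9.38, 14.9 and 5.002 TPM (8.53 ± 4.71), whereas its partner Musk had no count in any mouse. Among the alpha chains that pair with Itgb1, Itga1 had 0.263, 8.64, 2.07 and 3.14 TPM. The other alpha chains of this list were near 0 in most mice. Itga2 had 15, 0, 0 and 0 counts, Itga3 no more than 3, Itga6 1, 38, 0 and 0 and Itga7 183, 1, 0 and 1.

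Of the genes that glycosylate dystroglycan or link it to the cytoskeleton, 7 of 8 passed, with Pomgnt1 the highest by median (7.21 TPM) and Dmd, which encodes dystrophin, at 0 in every mouse. Of 10 associated matrix proteins, 4 passed. Smoc2 had 28.5, 17.8, 15.0 and 72.7 TPM and Fbln1, which encodes the nidogen- and laminin-binding fibulin-1, 19.0, 104, 26.4 and 15.3 TPM. Fbln1 was again highest in mouse 2, and Smoc2 in mouse 4.

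**Figure D5:**
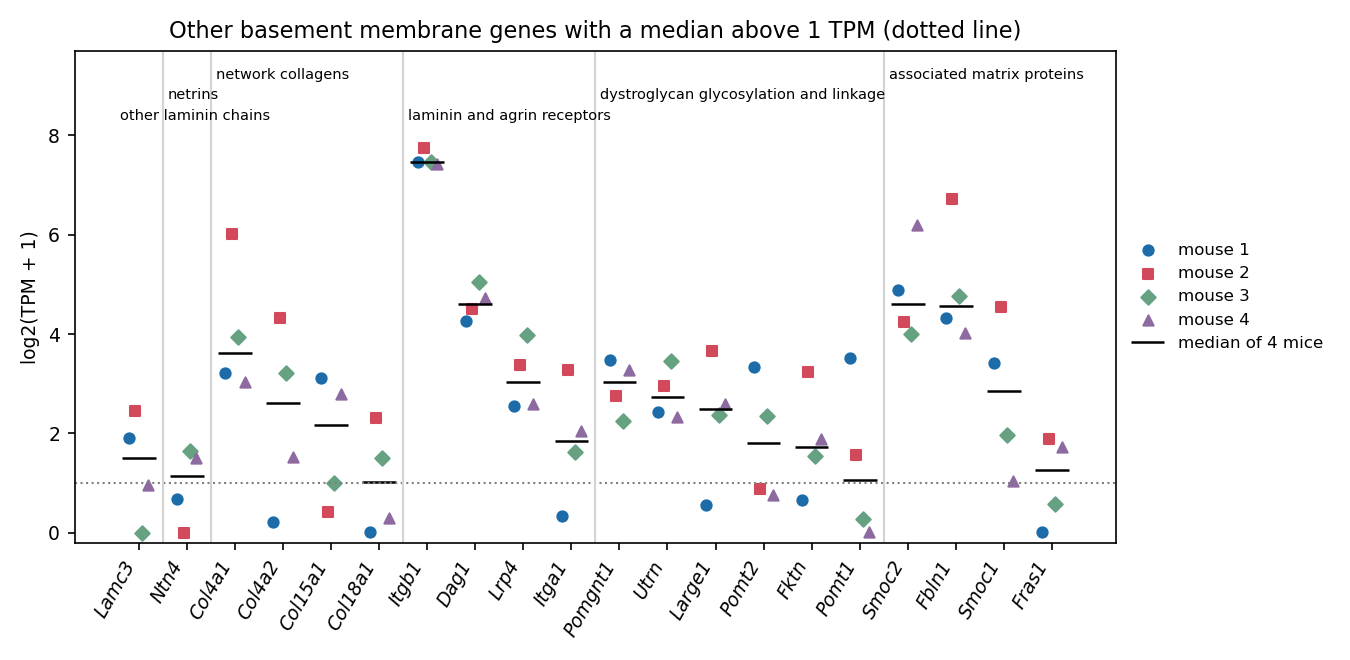
Other basement membrane genes with a median above 1 TPM that are reported here, grouped by role, as log2(TPM + 1) with 1 point per mouse, a bar for the median of 4 mice and a dotted line at 1 TPM. Itgb1 and Dag1 are at a like level in all 4 mice, while Col4a1, Col4a2 and Fbln1 are highest in mouse 2.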

How the data were processed

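The authors deposited gene counts, made per the study's methods by aligning read pairs to GRCm39 with STAR 2.7.10 and counting with featureCounts (Subread 1.6.5) on all annotated exons without a strand option, after demultiplexing with bcl2fastq 2.20.0. Reads that failed the default alignment were aligned again under looser length filters by the authors. Full-length cDNA was amplified from 100 cells without molecular identifiers, so counts are not independent molecules.

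From these counts, TPM was computed with merged exon lengths of GENCODE M21 (GRCm38), matched by Ensembl identifier. Of 56980 genes, 4855 had no length and were left out, leaving 52125. Lengths of another build can shift a level but not a difference between mice in counts. Coordinates are GRCm38, and no coordinate was converted. The 9 differences were taken within each mouse in log2(TPM + 1) and tested by exact two-sided sign-flip permutation with Benjamini-Hochberg adjustment. The 4 libraries are from separate mice of 1 group.

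Members, lists and named genes were chosen with earlier results of these data known. All members were named, with every other laminin chain, collagen and receptor gene above a median of 1 TPM and the 2 highest genes by median of each other role, except for a few genes that are not reported here. Near-identical sequence was searched with BLAST 2.17.0 (at least 95% identity over 100 bases), and proteins were translated from GENCODE M21 and aligned with Biopython 1.88. Python 3.11.15, numpy 2.4.6, pandas 2.3.3, scipy 1.17.1 and R 4.3.3 with edgeR 4.0.16 (TMM) and DESeq2 1.42.0 (size factors) were used. Tested on simulated counts of these 52125 genes, the cutoff placed 49534 of 49543 clear genes correctly. Alternatives, not all of which apply to every result, were the longest transcript length, counts scaled by library total without length, a protein-coding total, both scalings, a pseudocount of 0.1, other cutoffs, the median over mice and leaving out each mouse.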

Additional observations from a re-analysis of the deposited data

Results flagged for a closer look

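Among the members, 5 had 1 mouse far from the other 3, judged by the gap to the nearest mouse over the whole range of TPM, against Dixon's 95% limit for 4 values. For Lama2 (0.946) and Lama5 (0.994) this was mouse 4, with 86 and 108 counts against at most 5 elsewhere. For Nid1 (0.912), Nid2 (0.968) and Agrn (0.846) it was mouse 2, at 17.1, 1.39 and 18.1 TPM. Of 12976 protein-coding genes with a mean above 0.1 TPM, 2728 had a mouse as far apart, and of those with a mean above 1 TPM 11.7% did, beside 2 of 7 members above that mean. The difference Lama2 minus Lama5 stood apart through mouse 4 as well (0.879), as did the summed TPM of the leukocyte marker Ptprc (0.963), with 50 counts in mouse 4 and at most 2 elsewhere. In all, 7 of 32 measures passed the limit. For normally distributed values, chance alone picks out about 1 in 20 groups, which is 1.6 of 32. The protein-coding genes with a mean above 0.1 TPM passed far more often than that, at 2728 of 12976. The 7 of 32 can therefore not be read as an excess over the usual rate in these libraries. These measures also share 4 libraries and several share a gene. With TMM factors Agrn fell below the limit (0.809). Why mice 2 and 4 stood apart was not tested.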

How the results depend on the processing

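With a single group, the levels show no effect of any condition, and 4 mice cannot take the permutation test below p = 0.125. No paired analysis between groups was possible because all libraries belong to 1 group. The number of members past the cutoff was 7 under every scaling and length tried, under a filter of 10 counts per mouse and without each mouse, but it was 6 when more than 1 TPM was required in every mouse and 3 at a median above 5 TPM. Of the other basement membrane genes, 21 passed, against 9 with more than 1 TPM in every mouse, 11 at a median above 5 TPM and 17 to 19 without 1 mouse. Lama2 minus Lama5 turned to 0.0048 in log2(TPM + 1) with the longest transcript as the length and ranged from -0.12 to 0.0116 without 1 mouse, above 0 only without mouse 4. The nidogen sum minus Lamc1 ranged from -0.23 to 0.0586 without 1 mouse, above 0 only without mouse 3. The other 7 differences kept their direction under the alternatives run for them (pseudocount 0.1, longest transcript, no length, TMM factors and leaving out each mouse), with Lama4 minus Lama2 from 1.35 to 4.01, Lama4 minus Lama5 from 1.25 to 3.90, Nid1 minus Nid2 from 2.18 to 4.65, the beta chain sum minus Lamc1 from 2.04 to 2.62, Lamb1 minus Lamb2 from -3.10 to -1.83, Hspg2 minus Agrn from -0.88 to -0.11 and the alpha chain sum minus Lamc1 from -0.97 to -0.06. Counts of 5 or fewer, as for Lama2, Lama5 and Nid2 in most mice, limit those levels to near the floor.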
